A study of Homo sapiens with 2 samples.

Results

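Interferon signalling and the genes that interferons induce were examined by cap analysis of gene expression (CAGE) in the human hepatoma line PLC/PRF/5. In CAGE a short tag is read at the 5′ end of a capped RNA and locates where transcription began. A transcript gives a tag at its start whatever its length, and levels can therefore be compared between genes without dividing by length. The 2 groups were cells kept without M2BPGi (non-treated, 0 µg/ml) and cells given M2BPGi, the glycan isomer of Mac-2-binding protein, at 3 µg/ml, with 1 library each and collection after 6 h. Both groups are the same cell line with no genetic change named in the labels. The comparison asks which signals M2BPGi alters in hepatocellular carcinoma cells, and with 1 library per group no difference below has a replicate check.

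The genes were chosen by symbol, as 39 genes of interferon receptors and kinases, STAT and IRF factors, RNA sensors and stimulated effectors. Of these 39, 31 had a row among the 16424 listed genes. IFITM1, IRF7, IFIT2, IFIT3, IFI44, IFI44L, MX1 and DHX58, 8 genes in all, had no row and are not analysed here. IFNAR2 had a second identifier, ENSG00000249624, with 1.12 CPM (tags scaled to library size) without and 0.720 CPM with M2BPGi. This identifier and the genes IFI27 and OASL had a mean below 1 CPM, and 29 genes passed that limit. IFI27 had 0.870 CPM without and 0.600 CPM with M2BPGi, and OASL had 1.0 and 0.720 CPM. These low values rest on 15 to 27 tags per library.

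Type I interferons bind the receptor chains IFNAR1 and IFNAR2, and interferon gamma binds a receptor that contains IFNGR1. The kinases JAK1, which acts on both receptors, and TYK2, which acts on IFNAR1, phosphorylate STAT proteins. STAT2 and IRF9 belong to a complex that binds the interferon-stimulated response element (ISRE) in the promoters of antiviral genes, while interferon gamma acts through the gamma-activated site (GAS). RNA sensors such as RIG-I (DDX58) and MDA5 (IFIH1) detect viral RNA and start the production of interferon through IRF3. Hepatocytes carry these receptors and sensors, and the pathway is a main defence of the liver against hepatitis viruses. PLC/PRF/5 cells carry integrated hepatitis B virus DNA.

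The promoters of several of these genes show the elements in their sequence. Promoter stretches were taken from RefSeq (GRCh38.p14), each is read 5′ to 3′ on the strand of its gene, and the capitals mark the matches, which lie before the start in RefSeq. GENCODE v29 places some starts further upstream, so that the stretches of ISG15, IFITM3 and part of that of IFIH1 lie inside its bounds of these genes. The core of the ISRE was searched as GAAA, any 2 bases and GAAA, and on the other strand as TTTC, any 2 bases and TTTC. The GAS was searched as TTCNNNGAA, which is its own reverse complement. Matches may overlap, as they do in ISG15, IFIH1 and BST2. ISG15, IFI6 and IFITM3 are shown as the most abundant genes of the group, and IFIT1, IFIH1, BST2 and IRF1 as genes that were lower in M2BPGi-treated cells. For IRF1 the capitals mark the GAS, and for the others the ISRE core.
ISG15 (chr1:1013372-1013411, plus strand): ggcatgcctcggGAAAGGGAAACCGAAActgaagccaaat
IFI6 (chr1:27672264-27672360, minus strand): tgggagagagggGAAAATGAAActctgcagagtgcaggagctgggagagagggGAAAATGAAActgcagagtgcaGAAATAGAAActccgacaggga
IFITM3 (chr11:320874-320924, minus strand): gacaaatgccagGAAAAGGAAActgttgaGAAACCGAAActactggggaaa
IFIT1 (chr10:89392495-89392541, plus strand): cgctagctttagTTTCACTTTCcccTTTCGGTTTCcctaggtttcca
IFIH1 (chr2:162318685-162318855, minus strand): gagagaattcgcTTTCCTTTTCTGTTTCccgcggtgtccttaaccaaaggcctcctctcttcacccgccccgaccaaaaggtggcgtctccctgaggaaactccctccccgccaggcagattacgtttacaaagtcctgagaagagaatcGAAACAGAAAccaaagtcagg
BST2 (chr19:17405733-17405772, minus strand): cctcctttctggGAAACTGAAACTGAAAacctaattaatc
IRF1 (chr5:132490877-132490909, minus strand): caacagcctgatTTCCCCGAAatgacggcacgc

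The numbers of tags were not given as such but read back from the rounded CPM as the smallest library totals that fit, 24040209 for non-treated and 24862941 for M2BPGi-treated cells. Each tag number and interval given here rests on these totals. The hepatoma label was checked against markers. AFP, the fetal liver protein, had 695 and 566 CPM in non-treated and M2BPGi-treated cells, and KRT18, an epithelial keratin, had 1250 and 1592 CPM. ALB, the gene of albumin, was low, with 8.82 and 7.04 CPM. SERPINA1, the gene of alpha-1 antitrypsin, had 671 and 455 CPM. APOA1, APOB and TTR were low like ALB, with 4.37, 15.6 and 3.62 CPM without and 4.63, 11.1 and 2.49 CPM with M2BPGi. KRT8, another epithelial keratin, had 835 and 811 CPM, and GPC3 had 62.5 and 52.2 CPM. All 9 hepatoma markers had a row, 7 were lower with M2BPGi, and their sum was 3546 and 3502 CPM. The keratins KRT18 and KRT8 were the most abundant of them. The part of these markers in the differences below was not tested. Of 5 leukocyte markers, PTPRC was at 0 tags in both libraries, which allows up to 0.125 CPM without and 0.121 CPM with M2BPGi, and CD14 and CD3E had no row. LYZ, the most abundant of them, had 32.1 and 29.2 CPM, and CD68 had 21.2 and 20.5 CPM, so the list summed to 53.2 and 49.7 CPM. Of 4 fibroblast markers only COL1A1 had a row, with 0.670 and 0.760 CPM, and 0 of 3 endothelial markers had one.

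Most interferon genes were lower in M2BPGi-treated cells, by modest amounts, while the most abundant ones differed little. Of the 29 genes, 25 were lower and 4 were higher, and of all 13724 genes with a mean of at least 1 CPM, 57% were lower and 42.9% higher. Of these 25, OAS1, IRF3, IFITM3 and ISG20 turned to higher when the values were centred on the median gene or scaled by the trimmed mean of M-values, which left 21 lower and 8 higher under either scaling, beside 6857 of 13720 and 6954 of 13721 genes lower over all genes. The median log2 ratio (M2BPGi-treated over non-treated, after adding 1 CPM) was -0.18 for the 29 genes and -0.05 for all genes. The added 1 CPM understates the difference of low genes.

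A gene was counted as called when it differed at least 1.5-fold on this scale. In the lower direction 4 of the 29 genes were called (13.8%), beside 4.04% of all genes, and in the higher direction 0 of the 29, beside 1.6%. These 4 genes were IRF1, DDX58, BST2 and IFIT1, of which IFIT1 came inside the limit under either rescaling, with log2 ratios of -0.57 and -0.57, and BST2 and IFIT1 did with 5 CPM added, with -0.45 and -0.57. With 0.1 CPM added IFIH1 was called as well, at -0.67. On the same scale 9 genes were lower by at least 20% (31.0%, beside 18.4% of all genes) and 1 was higher by at least 25% (3.45%, beside 9.04%), and at 2-fold 0 were lower (beside 0.43%) and 0 higher (beside 0.24%). The counting error of a gene is given below as the 95% Clopper-Pearson interval of its tag ratio, M2BPGi-treated over non-treated. Any PCR copies would not be independent molecules, and the intervals cover counting error only. The interval lay below 1 for 19 of the 29 genes (65.5%), beside 31.5% of all genes, and above 1 for 4 (13.8%), beside 22.8%. For the other 6 it held 1, so that a difference was not detectable at this depth. Intervals narrow with tag number, and 25 of the 29 genes had a mean of at least 10 CPM, beside 9464 of 13724 genes. The interval shares here and below were not matched for level, and its part in them was not tested. In bulk RNA, fewer cells with a transcript and less RNA per cell cannot be told apart.

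**Figure D1:**
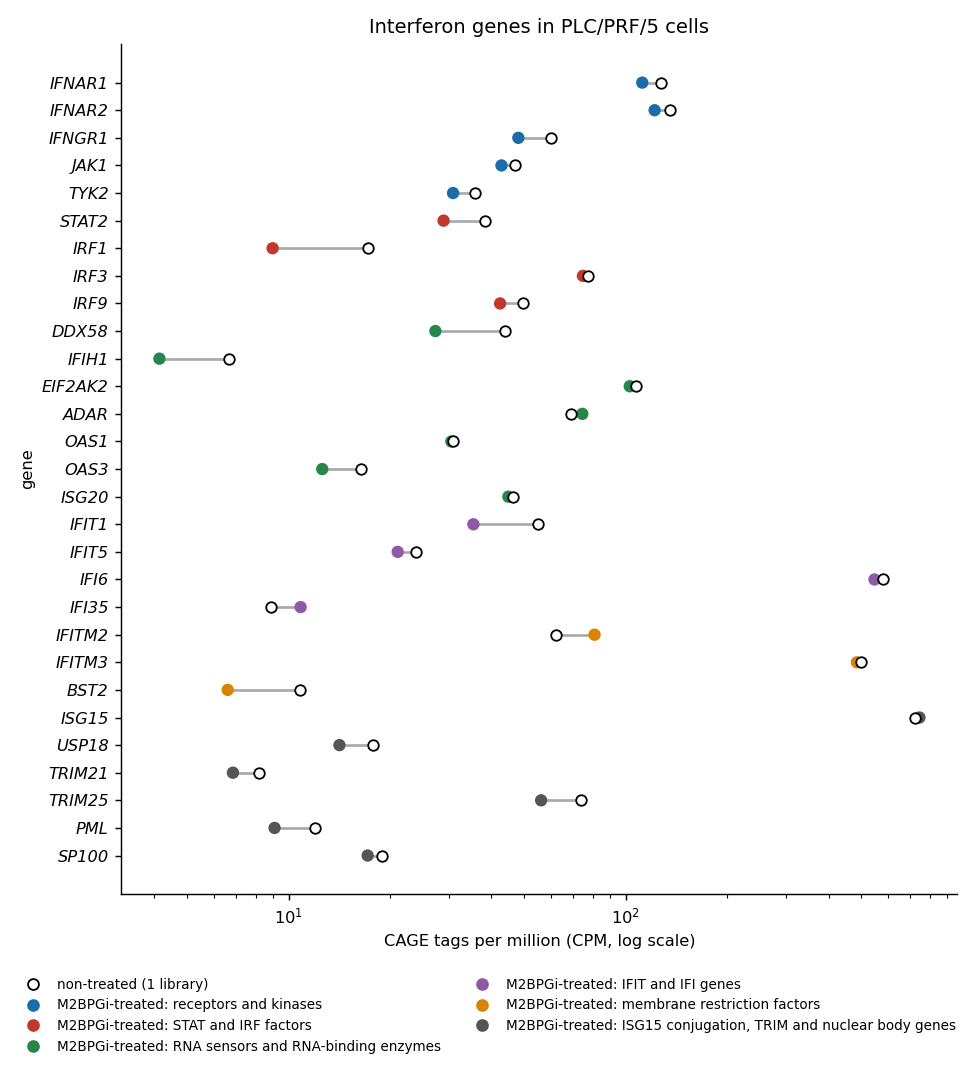
Level of the 29 interferon genes with a mean of at least 1 CPM in each library, in CPM on a log axis. Open circles are non-treated and filled circles M2BPGi-treated cells, coloured by role, with 1 library each and no error bars. Filled circles lie to the left for 25 genes, of which OAS1, IRF3, IFITM3 and ISG20 turn under either rescaling, and ISG15, IFI6 and IFITM3 stand at the right with nearly coinciding circles.

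The receptor chains IFNAR1, IFNAR2 and IFNGR1 and the kinases JAK1 and TYK2 were lower in M2BPGi-treated cells, with log2 ratios from -0.32 to -0.13. IFNAR1 had 127 CPM without and 112 CPM with M2BPGi, a ratio of 0.881 (interval 0.836 to 0.927). IFNAR2, its partner chain, had 135 and 122 CPM, a ratio of 0.902 (interval 0.858 to 0.948). The type I receptor chains thus stood at similar levels and at similar ratios. IFNGR1, the ligand-binding chain of the interferon gamma receptor, had 60.1 and 48.1 CPM, a ratio of 0.800 (interval 0.740 to 0.864), the lowest ratio of the 5 genes. JAK1, which serves several cytokine receptors, had 47.0 and 42.8 CPM (interval of the ratio 0.837 to 0.992), and TYK2, the kinase on IFNAR1, had 35.7 and 30.8 CPM (interval 0.782 to 0.953). The sum of the 5 genes was 405 CPM without and 356 CPM with M2BPGi, and the interval of the ratio was below 1 for all 5, beside 31.5% of all genes. Under either rescaling the interval of JAK1 held 1. The first 500 nt of IFNAR2 transcripts are shared with its second identifier, a readthrough into IL10RB, and the tags of these genes may be split between them.

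Among the STAT and IRF factors, IRF1 had the lowest ratio of all 29 genes. IRF1 (ENSG00000125347, chromosome 5 from 132481609 to 132490798 in GENCODE v29, GRCh38) encodes a transcription factor that interferon gamma induces through the GAS in its promoter shown above. It had 17.3 CPM (415 tags) without and 8.97 CPM (223 tags) with M2BPGi, a ratio of 0.520 (interval 0.440 to 0.613) and a log2 ratio of -0.87. Of all genes, 0.794% had a log2 ratio as low or lower. STAT2, a subunit of the complex that binds the ISRE, had 38.3 and 28.8 CPM, a ratio of 0.754 (interval 0.683 to 0.832). IRF9, the DNA-binding subunit of that complex, had 49.7 and 42.4 CPM, a ratio of 0.854 (interval 0.785 to 0.928). Its first 500 nt are shared with an overlapping readthrough gene, and its tags may be split with it. IRF3, which is activated by phosphorylation downstream of the RNA sensors, had 77.2 and 74.7 CPM, and its interval of 0.907 to 1.03 held 1.

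The RNA sensors and RNA-binding enzymes split. RIG-I and MDA5 were lower, whereas PKR, OAS1, ISG20 and ADAR were within 10% of the non-treated level. DDX58 (ENSG00000107201, chromosome 9 from 32455705 to 32526324), the gene of the sensor RIG-I, had 44.0 CPM (1057 tags) without and 27.3 CPM (678 tags) with M2BPGi, a ratio of 0.620 (interval 0.562 to 0.684). IFIH1 (ENSG00000115267, chromosome 2 from 162267079 to 162318703), the gene of the sensor MDA5, had 6.66 CPM (160 tags) and 4.14 CPM (103 tags), a ratio of 0.622 (interval 0.481 to 0.802). The ratios of these related helicases were nearly equal, but IFIH1 is low and its log2 ratio of -0.58 fell just short of the 1.5-fold limit once 1 CPM was added. OAS3, which makes the 2-5A messenger that activates RNase L, had 16.4 and 12.6 CPM, a ratio of 0.770 (interval 0.662 to 0.896). OAS1, an enzyme of the same family, had 30.7 and 30.4 CPM (interval 0.893 to 1.10). EIF2AK2, the gene of the kinase PKR that halts translation upon binding double-stranded RNA, had 107 and 103 CPM (interval 0.909 to 1.01). The exonuclease gene ISG20 had 46.3 and 44.9 CPM (interval 0.892 to 1.06). ADAR, which edits adenosines in double-stranded RNA, was higher, with 68.8 and 74.4 CPM, a ratio of 1.08 (interval 1.01 to 1.16).

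**Figure D2:**
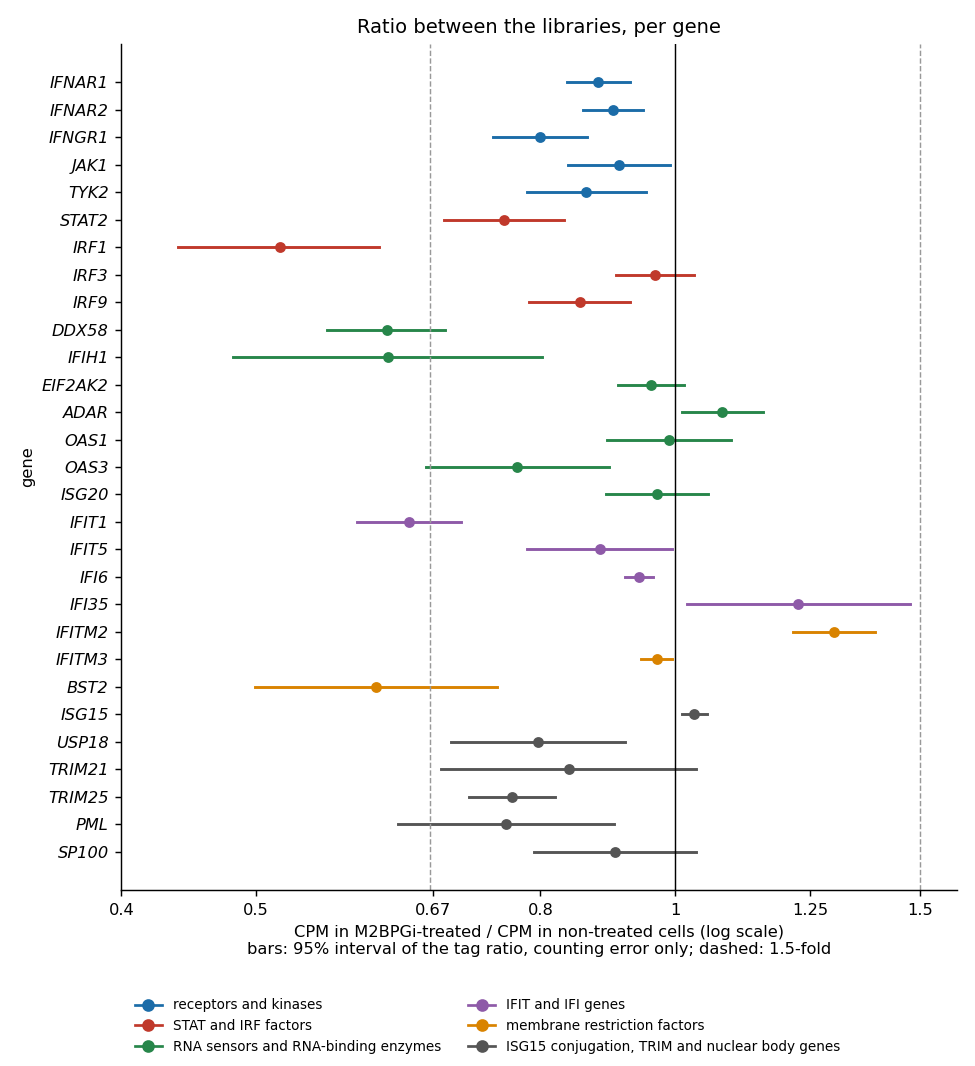
Ratio of M2BPGi-treated to non-treated CPM for each of the 29 genes on a log axis, without an added CPM. Points are ratios of 1 library to 1 library, bars are 95% intervals of the tag ratio for counting error only, and dashed lines mark 1.5-fold. IRF1 is farthest to the left at 0.520 and IFITM2 farthest to the right at 1.30. IFIH1 lies beyond the dashed line here but not after 1 CPM is added.

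Among the IFIT and IFI genes, IFIT1 was lower and the far more abundant IFI6 was nearly level. IFIT1 (ENSG00000185745, chromosome 10 from 89392546 to 89406486), whose protein binds viral RNA that lacks cap methylation, had 54.9 CPM (1320 tags) without and 35.4 CPM (879 tags) with M2BPGi. Its ratio was 0.644 (interval 0.591 to 0.702). IFIT5, its neighbour on the chromosome and a member of the same family, had 23.9 and 21.1 CPM, a ratio of 0.883 (interval 0.783 to 0.995), and the interval held 1 under either rescaling. IFIT1 was thus the more abundant of these neighbours and had the lower ratio, and the difference between their ratios was not tested. IFI6, a mitochondrial and membrane protein gene with 3 ISRE cores in the stretch shown above, had 581 and 547 CPM, a ratio of 0.942 (interval 0.920 to 0.964), which held 1 when the values were centred on the median gene. IFI35, whose protein binds NMI, was higher, with 8.86 and 10.9 CPM, a ratio of 1.23 (interval 1.02 to 1.47).

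The membrane restriction factors went in different directions. BST2 (ENSG00000130303, chromosome 19 from 17402939 to 17405648) encodes tetherin, which holds budding virus particles at the cell surface. It had 10.8 CPM (260 tags) without and 6.60 CPM (164 tags) with M2BPGi, a ratio of 0.610 (interval 0.499 to 0.744). IFITM2 and IFITM3 encode membrane proteins that block the entry of viruses by fusion. IFITM2 had 62.2 and 80.9 CPM, a ratio of 1.30 (interval 1.22 to 1.39), the highest of the 29 genes, and IFITM3 had 500.5 and 485 CPM, a ratio of 0.970 (interval 0.945 to 0.995). IFITM3 turned slightly higher under either rescaling of the libraries, with log2 ratios of 0.01 and 0.01. The first 500 nt of transcripts of IFITM2 and IFITM3 match each other with at least 95% identity, and IFITM2 matches IFITM1 with 99.7% identity over 382 nt. The assignment of tags within this family is therefore uncertain.

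ISG15 (ENSG00000187608, chromosome 1) encodes a ubiquitin-like protein that is conjugated to other proteins during an interferon response. It was the most abundant of the 29 genes, with 721 CPM (17344 tags) without and 744 CPM (18504 tags) with M2BPGi, a ratio of 1.03 (interval 1.01 to 1.05). USP18, which removes ISG15 from proteins and damps the receptor, had 17.8 and 14.2 CPM, a ratio of 0.797 (interval 0.690 to 0.920). TRIM25, a ubiquitin ligase that activates RIG-I, had 73.6 and 56.2 CPM, a ratio of 0.763 (interval 0.711 to 0.819). ISG15 was thus slightly higher while its protease and the RIG-I ligase were lower. TRIM21, a receptor for antibodies in the cytosol, had 8.15 and 6.84 CPM (interval 0.679 to 1.04). PML, which organises nuclear bodies, had 12.02 and 9.09 CPM, a ratio of 0.756 (interval 0.633 to 0.903). SP100, another component of these bodies, had 19.0 and 17.2 CPM (interval 0.792 to 1.04).

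In summed CPM, the 3 most abundant genes differed less than the other 26. Gene by gene this did not always hold, as OAS1, with a ratio of 0.989, differed less than each of the 3 on the deposited scale. After centring and by the trimmed mean OAS1 had log2 ratios of 0.04 and 0.03, larger than the 0.01 and 0.01 of IFITM3. In the sum, the higher ISG15 offsets part of the lower IFI6. ISG15, IFI6 and IFITM3 together made up 60.1% of the tags of the 29 genes in non-treated and 62.5% in M2BPGi-treated cells. Their sum was 1803 and 1777 CPM, 1.45% lower. The shifts removed by centring and by the trimmed mean, log2 -0.06 and -0.05, are larger than this difference, so its direction depends on the scaling. After these rescalings ISG15 had log2 ratios of 0.10 and 0.10. The sum of the other 26 genes was 1199 and 1065 CPM, 11.1% lower. All 14 genes with a mean of 10 to 50 CPM were lower, with a median log2 ratio of -0.27, beside 60.8% lower and a median of -0.07 for the 5775 genes in this range. Of these 14 genes, 3 were called lower (21.4%, beside 2.84%), and OAS1 and ISG20 among the 14 turned to higher under either rescaling. The 11 genes with a mean of at least 50 CPM had a median of -0.06, beside 0.05 for 3689 genes, and 8 of them were lower, beside 43.4%, of which IRF3 and IFITM3 turned to higher under either rescaling. The 4 genes with a mean of 1 to 10 CPM, namely IFIH1, BST2, TRIM21 and IFI35, had a median of -0.40, beside -0.11 for 4260 genes. Of these 4 genes, 3 were lower (beside 63.7%) and 1 was called lower (beside 7.79%). From the lowest to the highest level the share lower over all genes fell, and the interferon medians rose from -0.40 to -0.06. The part of level in these differences was not tested.

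**Figure D3:**
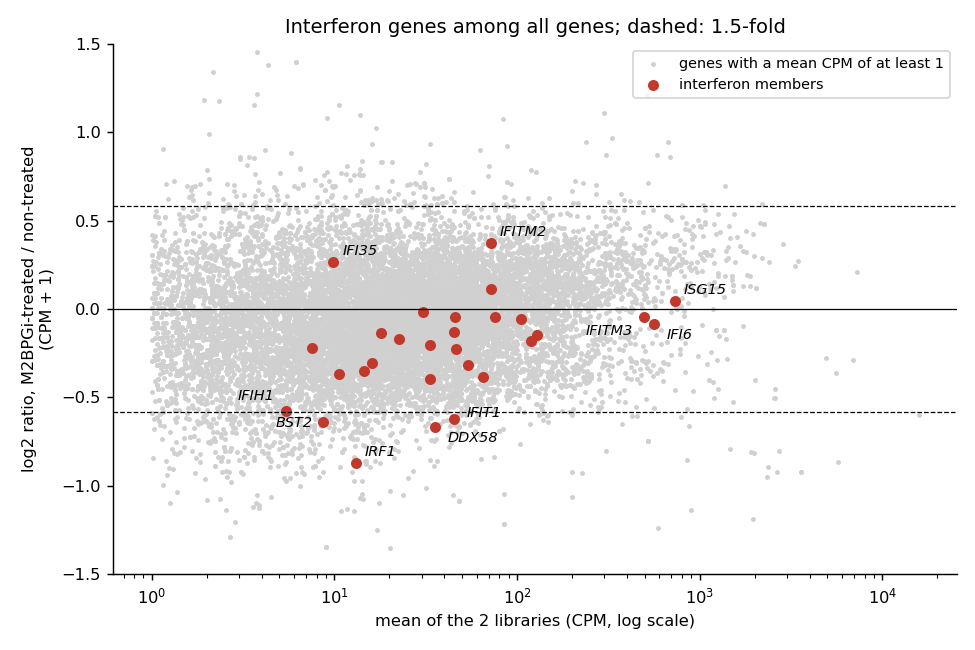
Log2 ratio (M2BPGi-treated over non-treated, after adding 1 CPM) against the mean of the 2 libraries on a log axis. Grey points are genes with a mean of at least 1 CPM, of which 37 lie outside the plotted range, red points are the 29 interferon genes, and dashed lines mark 1.5-fold. IRF1, DDX58, BST2 and IFIT1 lie below the lower line, and ISG15, IFI6 and IFITM3 lie near 0 at the right.

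Transcript length moved with the ratio as well. By the longest transcript in GENCODE v29, which was found for 96.7% of them, all genes were split into 3 groups of like size. The median log2 ratio was -0.11 over 4352 nt and 0.02 up to 2365 nt. The 11 interferon genes in the long group had a median of -0.35, the 9 in the middle group -0.17 and the 9 in the short group -0.09. In each group the interferon genes lay below all genes, whose middle group had -0.05. Among the 4 called genes, IRF1 (5153 nt), DDX58 (4353 nt) and IFIT1 (4613 nt) were in the long group and BST2 (1019 nt) in the short group. Of all genes, 2.99% were called lower in the long group and 5.31% in the short group, so calls over all genes ran opposite to the medians. The part of length in these differences was not tested.

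Promoters of 250 bases before to 50 after the annotated start were found for 24 of the 29 genes, DDX58 through its current symbol RIGI. The genes IFNAR2, IRF3, IFITM2, PML and USP18 had no match. A gene was counted when any of its promoters held a match. The ISRE core was present for 11 of the 24 genes (45.8%), beside 3.55% of 9944 genes matched to a promoter. Of 35116 single promoters of this length, 3.57% held it. These 11 genes were ISG15, IFI6, IFITM3, EIF2AK2, ISG20, IFIT1, IFIT5, IFIH1, OAS3, BST2 and TRIM21. Their median log2 ratio was -0.17, with 10 of 11 lower, and that of the 13 genes without a match was -0.21, with 11 lower. In a wider list of 100 other interferon symbols, the order was the opposite: the 19 genes with the core had a median of -0.21, with 15 lower, and the 32 without had -0.04, with 16 lower. The ISRE core was found for the level genes ISG15, IFI6 and IFITM3 as well as for IFIT1, IFIH1 and BST2, and no match was found for DDX58 and IRF1. Among the 9944 genes matched to a promoter, the 353 with an ISRE core had a median of -0.10 and 61.2% were lower, and the 9591 without had -0.05 and 56.8%. The GAS was present for 5 of the 24 genes (20.8%), beside 8.08% of the 9944 matched genes and 7.66% of single promoters. These 5 genes were IRF1, IRF9, OAS1, IFI35 and BST2. Their ratios ran from 0.520 for IRF1 to 1.23 for IFI35. A match to these letters is a description of the sequence, a missing match says only that the letters are not in this window, and binding was not measured.

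The wider list of 100 symbols does not contain the 39 genes. Of these symbols, 63 had a row and 58 had a mean of at least 1 CPM. None of the 9 symbols of interferon ligands, IFNA1, IFNA2, IFNB1, IFNE, IFNK, IFNG, IFNL1, IFNL2 and IFNL3, had a row. The 58 genes had a median log2 ratio of -0.10, with 34 lower (beside 57%) and 23 higher (beside 42.9%), and 3 were called lower (5.17%, beside 4.04% of all genes) and 0 higher (beside 1.6%). The interval of the ratio was below 1 for 25 (43.1%, beside 31.5%) and above 1 for 8 (13.8%, beside 22.8%). Their sum was 2179 and 1999 CPM, 8.27% lower, while that of the 29 genes was 3002 and 2842 CPM, 5.31% lower, and that of all genes was 940841 and 943599 CPM. The median of the wider list thus lay closer to that of all genes than the median of the 29 genes did, but its sum did not, and the difference between the lists was not tested.

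HELZ2 and PARP14 were the lowest of the wider list with a mean of at least 10 CPM. HELZ2, a helicase and nuclear receptor co-activator gene induced by interferon, had 43.3 CPM without and 23.5 CPM with M2BPGi, a ratio of 0.542 (interval 0.489 to 0.600). PARP14, an ADP-ribosyltransferase gene, had 27.2 and 15.3 CPM, a ratio of 0.562 (interval 0.494 to 0.639). ZC3HAV1, the gene of the zinc-finger antiviral protein, had 51.8 and 37.2 CPM, a ratio of 0.718 (interval 0.659 to 0.783). The RNA helicase gene MOV10 had 46.6 and 33.8 CPM (interval 0.662 to 0.793), and PARP12 had 66.4 and 48.8 CPM (interval 0.681 to 0.792). The highest were TRAF3 with 9.03 and 12.9 CPM, SHISA5 with 64.2 and 85.7 CPM, IFNGR2 with 51.1 and 60.6 CPM, LY6E with 55.0 and 63.7 CPM and PSMB10 with 40.2 and 45.7 CPM. TRAF3 is an adaptor downstream of the RNA sensors, and its ratio was 1.43 (interval 1.20 to 1.70). IFNGR2, the second chain of the interferon gamma receptor, had a ratio of 1.19 (interval 1.10 to 1.28), while IFNGR1 had 0.800, and this difference was not tested.

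LGALS3BP, which interferon induces and which encodes Mac-2-binding protein itself, had 277 CPM without and 213 CPM with M2BPGi, a ratio of 0.768 (interval 0.741 to 0.796).

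**Figure D4:**
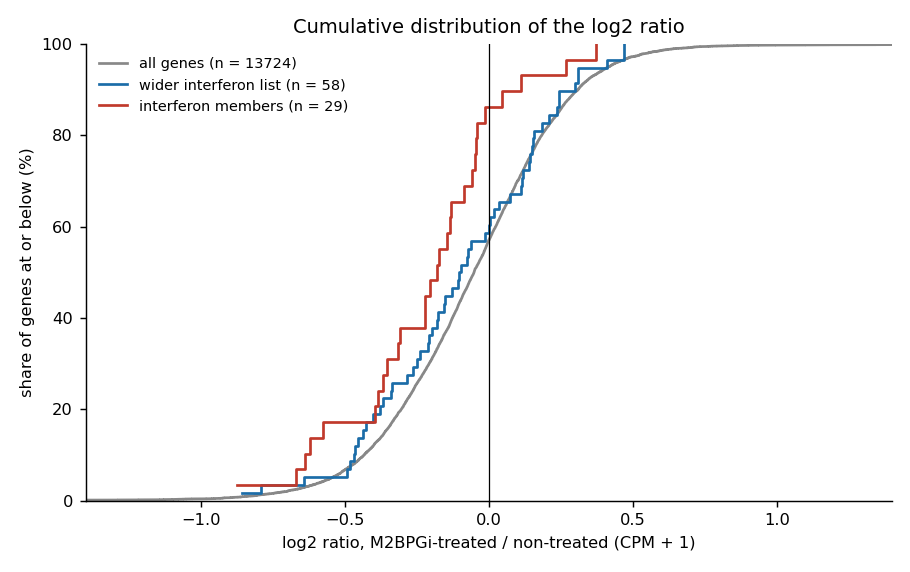
Cumulative distribution of the log2 ratio (M2BPGi-treated over non-treated, after adding 1 CPM) for all 13724 genes (grey), 58 genes of the wider interferon list (blue) and the 29 interferon genes (red). The vertical axis gives the share of genes at or below a ratio, in percent. The tails of the grey line run beyond the axis. The red line crosses 0 at 86.2% and the grey line at 57%.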

How the data were processed

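CAGE tags were measured in 2 libraries of PLC/PRF/5 cells. The study's methods state that the authors left out ribosomal RNA and tags with other letters than A, C, G or T before BWA mapping, and grouped tag starts with CAGEr. Human hg19, BWA and HISAT2 stand in the submitters' processing notes, whereas the methods give a mouse genome; the gene identifiers are human. No source used here tells how a tag was given to a gene. The authors deposited CPM per gene to 2 decimals, without coordinates.

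Each value above 0 was, within that rounding, a whole number of tags, and tag numbers were inferred from this. Groups were taken from the labels. Log2 ratios used a pseudocount of 1 CPM over 13724 genes with a mean of at least 1 CPM. With 1 library per condition no test was made. Genes were called at 1.5-fold, and 95% Clopper-Pearson intervals of the tag ratio cover counting error only. The recovery of tags, the intervals, the 1.5-fold calls and the trimmed mean were run on simulated counts that held counting error only. All genes of the group are named. Of the wider list, the 5 highest and 5 lowest with a mean of at least 10 CPM are named, with LGALS3BP. Besides these, 1 gene also chosen is left out. APOBEC3F, APOBEC3G, TICAM1 and MAVS of the wider list are named under other observations. The genes and lists were chosen with earlier results of these data known. Near-identical copies (at least 95% identity over 100 nt of the first 500 nt) were searched among GENCODE v29 transcripts with BLAST 2.17.0. Promoters were matched by identifier or symbol. Alternatives were pseudocounts, filters, fold thresholds, scalings and sets without similar genes. Python 3.11.15 and scipy 1.17.1 were used.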

Additional observations from a re-analysis of the deposited data

How the results depend on the processing

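No paired analysis was possible because non-treated and M2BPGi-treated cells have a single library each, and none could be left out. The number of the interferon genes at least 1.5-fold lower was 4. It was 2 with a pseudocount of 5 CPM, 5 with 0.1 CPM, 3 with a mean of at least 10 CPM or after either rescaling, and 4 without the IFITM genes or without those with a near-identical copy, a setting chosen once the values had been seen. It was 0 at 2-fold and 9 at the lowest threshold run (20% lower or 25% higher), where the number higher, 0 otherwise, was 1. The median log2 ratio of the interferon genes ran from -0.21 to -0.13 and that of the wider list from -0.11 to -0.05 over the alternatives run. The interferon genes with an interval below 1 numbered 15 to 19.

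Over all genes, 555 were at least 1.5-fold lower and 219 higher. They were 856 and 336 with a pseudocount of 0.1 CPM, 164 and 91 with 5 CPM, 223 and 135 with a mean of at least 10 CPM, 59 and 33 at 2-fold and 2532 and 1240 at the lowest threshold. A lower threshold admits more genes, a stricter filter tests fewer, and adding more CPM pulls low genes towards a ratio of 1. Centring on the median gene gave 424 lower and 303 higher, and moved the share of higher calls from 28.3% to 41.7%. The trimmed mean of M-values, computed here on the tags, gave 439 and 288 and moved it to 39.6%. By intervals the share moved from 42.0% to 52.5% and 51.5%, with 25.6% and 26.1% of all genes below 1. For 40 of the genes named, 7 of 80 log2 ratios after rescaling differed from the deposited scale by more than the counting error, and 0 of 80 with another pseudocount did. Each rescaling moved all genes by nearly the same shift, log2 -0.06 or -0.05, so passing the counting error depends on tag number. The 7 ratios belong to the abundant genes ISG15, IFI6, IFITM3 and LGALS3BP. Depth bounds counting error alone, and variation between cultures was not measured.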

Other observations

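APOBEC3F and APOBEC3G, neighbouring antiviral cytidine deaminase genes of the wider list, were listed with the same values, 1.46 CPM without and 2.05 CPM with M2BPGi. Of all identifiers with a mean of at least 10 CPM, 668 had values in both libraries that equalled those of another identifier to 2 decimals. Of the interferon genes with a mean of at least 1 CPM, only IFIH1 shared its values, with FBXL19-AS1 at 6.66 and 4.14 CPM. The sensing adaptor gene TICAM1 was higher in M2BPGi-treated cells, with 5.24 and 7.64 CPM, a ratio of 1.46 (95% counting interval 1.16 to 1.84), while MAVS, the adaptor of RIG-I and MDA5, had 24.4 and 23.1 CPM (interval 0.844 to 1.07). Both were named after their values were seen.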
